A study of Mus musculus with 2 samples.

Results

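Complement genes in mammary gland cells were examined in 8 genes chosen by name, C1qa, C1qb, C1qc, C1ra, C1s1, C4b, C3 and Cfb, of the 32285 genes in the count tables. They were read against a list of 54 complement pathway genes that includes them. The study compared mammary glands of adult female mice that had received clodronate liposomes, which kill phagocytic cells that take them up, with glands of control mice. Cells were dissociated, sorted as negative for CD31 and TER119 (markers of endothelial and red blood cells), and captured in droplets for 3' single-cell RNA sequencing. There was 1 library labelled Ctrl (control) and 1 labelled CL (clodronate liposome treatment, described as macrophage-depleted). The labels give the mice of both as 9 to 10 weeks old in one place and 8 to 10 weeks old in another, and name no strain, genotype or clone. The design text of the series also names CD45+ immune cells among those sorted, while the study's methods name the CD31 and TER119 gate alone for this assay. How many mice went into each library was not given in the sources used here. With 1 library per condition no test between conditions is possible, and every interval here is a 95% interval that covers counting error only, not the spread between mice.

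Complement is a cascade of secreted proteins that tags cells and particles for removal and recruits leukocytes. In the classical pathway C1q, built from the products of C1qa, C1qb and C1qc, binds its target and activates the proteases C1r and C1s, which cut C4 and C2. The resulting enzyme cuts C3, the central component, and factor B amplifies that step in the alternative pathway. Liver makes most of the complement in blood, while tissue macrophages make C1q and stromal and epithelial cells can make other components locally.

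Positions are those of the GENCODE M21 annotation on build GRCm38, and all 8 are protein-coding genes. The C1q genes lie together on chromosome 4, minus strand, in the order C1qb (chr4:136880129-136886187), C1qc (chr4:136889804-136893065) and C1qa (chr4:136895917-136898803), with 3616 and 2851 bases between them. C1ra (chr6:124512405-124523443, plus strand) and C1s1 (chr6:124530345-124542359, minus strand) are neighbours 6901 bases apart. C4b (chr17:34728380-34743882) and Cfb (chr17:34856374-34862518) are both on the minus strand of chromosome 17, 112491 bases apart, and Cfb is 85 bases from C2. C3 lies elsewhere on that chromosome (chr17:57203970-57228136, minus strand).

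Promoter sequences are shown because the members fell into groups that were detected in the same cells, the C1q genes in macrophage-like cells and C1ra with C1s1 in fibroblast-like cells, while C3 differed most between the libraries in fibroblast-like cells. The RefSeq promoter table (GRCm38.p6) held 5 of the 8 members. Each window runs from 250 bases before to 50 bases after the start of transcription, 5′ to 3′ on the gene's strand, and capitals mark matches to the motifs named after the sequences. The windows are chr4:136886151-136886450 for C1qb, chr4:136892865-136893164 for C1qc, chr6:124512371-124512670 for C1ra, chr6:124542310-124542609 for the more upstream of the entries for C1s1, and chr17:57228087-57228386 for C3.
C1qb: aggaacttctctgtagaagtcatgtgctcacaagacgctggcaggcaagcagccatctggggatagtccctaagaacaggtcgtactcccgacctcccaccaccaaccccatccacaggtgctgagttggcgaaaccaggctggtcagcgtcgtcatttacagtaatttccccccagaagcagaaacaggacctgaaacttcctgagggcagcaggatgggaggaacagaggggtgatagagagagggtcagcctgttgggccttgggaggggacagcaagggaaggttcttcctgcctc
C1qc: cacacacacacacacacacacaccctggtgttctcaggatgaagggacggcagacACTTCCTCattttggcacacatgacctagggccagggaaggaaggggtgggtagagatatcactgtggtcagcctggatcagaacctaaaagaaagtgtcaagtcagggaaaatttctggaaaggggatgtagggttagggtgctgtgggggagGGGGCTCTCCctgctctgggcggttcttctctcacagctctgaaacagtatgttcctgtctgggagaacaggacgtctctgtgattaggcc
C1ra: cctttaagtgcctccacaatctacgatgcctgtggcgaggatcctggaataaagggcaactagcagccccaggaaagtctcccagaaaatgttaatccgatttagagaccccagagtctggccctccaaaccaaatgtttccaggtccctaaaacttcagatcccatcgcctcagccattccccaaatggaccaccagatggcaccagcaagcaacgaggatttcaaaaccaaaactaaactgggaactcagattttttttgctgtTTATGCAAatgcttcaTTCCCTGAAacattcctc
C1s1: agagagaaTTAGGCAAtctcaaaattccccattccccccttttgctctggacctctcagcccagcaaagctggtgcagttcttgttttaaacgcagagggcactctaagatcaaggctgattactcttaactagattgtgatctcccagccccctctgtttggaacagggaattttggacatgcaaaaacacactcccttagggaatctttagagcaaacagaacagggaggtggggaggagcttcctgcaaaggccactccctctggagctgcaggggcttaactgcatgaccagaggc
C3: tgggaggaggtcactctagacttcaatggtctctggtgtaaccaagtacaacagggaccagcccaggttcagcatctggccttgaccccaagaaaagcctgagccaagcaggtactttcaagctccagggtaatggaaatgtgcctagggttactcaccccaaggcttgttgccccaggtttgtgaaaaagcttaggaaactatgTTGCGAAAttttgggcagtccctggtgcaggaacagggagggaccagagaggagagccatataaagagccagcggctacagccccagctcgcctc

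Both strands were searched for GAAANNGAAA (the core of the interferon-stimulated response element), TTCNNNGAA (the GAS element bound by STAT factors), GAGGAAGT (a PU.1 site), TTGCNNAA (a C/EBP site) and the kappa B consensus. None of these overlaps another in the matches found. C1qc held a PU.1 match on the opposite strand, ACTTCCTC, whose first base is at -195 from the start, and a kappa B match, GGGGCTCTCC, at -41. C1ra held a C/EBP match, TTATGCAA, at 16 and a GAS match, TTCCCTGAA, at 32, both after the start. C1s1 held a C/EBP match, TTAGGCAA, at -242 of the entry shown, and its other entry, chr6:124542272-124542571, held none of the motifs. C3 held a C/EBP match at -45, TTGCGAAA. C1qb held no match. Among all 32851 promoters in the table, 10.8% held the C/EBP letters, 8.46% kappa B, 8.30% GAS, 3.44% the interferon-stimulated core and 3.20% PU.1.

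The tables held 118743318 unique molecular identifiers (UMIs, each counting 1 captured RNA molecule) for Ctrl and 155765480 for CL. After filtering, 5937 Ctrl cells and 8826 CL cells remained, with a median of 11351 and 10337 UMIs per cell, and 22 of the barcode columns taken as cells, before filtering, were shared by both libraries. Cells were clustered without complement genes and named from marker genes, with the suffix "-like" because no author annotation was used. The larger classes were secretory-lineage luminal-like (2656 Ctrl and 3908 CL cells), hormone-responsive luminal-like (2253 and 3093), basal-like (408 and 443), fibroblast-like (250 and 262), T and NK-like (214 and 738), macrophage-like (49 and 203) and endothelial-like cells (53 and 55). Macrophage-like cells were 2.30% of cells in the library labelled CL, against 0.825% where the label was Ctrl, and the 2 clusters they formed ran in opposite directions. The cluster led by H2-Eb1 and other MHC class II genes (40 Ctrl and 43 CL cells) was 0.674% (0.482% to 0.916%) of Ctrl cells and 0.487% (0.353% to 0.656%) of CL cells, lower in CL as the label says, with overlapping intervals. The higher share of the class in CL came from the cluster led by Lyz2, 9 Ctrl cells or 0.152% (0.0693% to 0.288%) and 160 CL cells or 1.81% (1.54% to 2.11%), which in CL held the macrophage marker Pf4 at 13.0 CPM against 342 CPM in the H2-Eb1-led cluster. Levels are given as CPM, a gene's UMIs per 1000000 UMIs of a class in a library, and droplets of 100 to 300 UMIs, taken to hold free RNA and no cell, give the background.

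**Figure D1:**
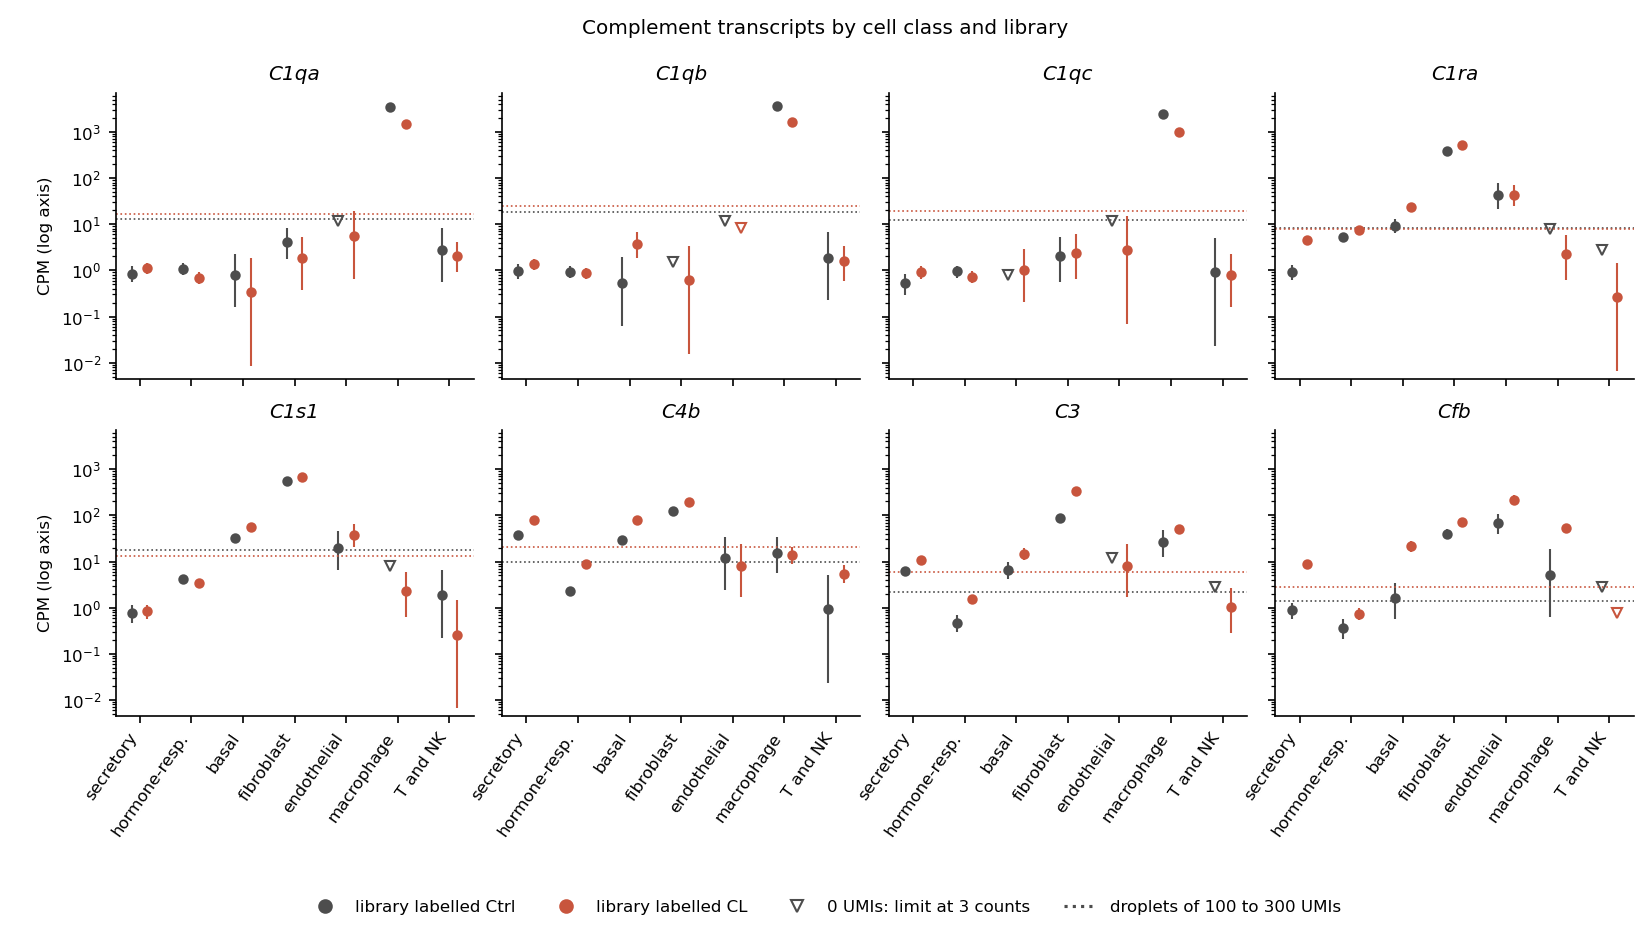
Level of each complement gene (CPM, log axis) in each cell class of the Ctrl and CL libraries, as points with 95% Poisson intervals; open triangles mark 0 UMIs, drawn at the limit that 3 counts would give, and dotted lines mark droplets of 100 to 300 UMIs. The C1q genes stand above the droplets in macrophage-like cells, and C1ra and C1s1 stand highest in fibroblast-like cells.

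The 8 genes divided by where their transcripts were found. Macrophage-like cells carried 93.5% of the C1qa UMIs of retained Ctrl cells and 96.0% of those of CL cells, and 93.3% to 95.6% of those of C1qb and C1qc. Fibroblast-like cells carried most transcripts of the proteases, 69.1% and 52.2% of C1ra and 71.6% and 69.1% of C1s1. C4b, the precursor of the fragment that attaches covalently to targets, came mainly from secretory-lineage luminal-like cells, 71.6% of its UMIs in Ctrl and 74.3% in CL. C3 was divided between fibroblast-like cells (40.5% and 43.7%) and secretory-lineage luminal-like cells (45.5% and 36.8%). Cfb was the gene whose sources differed most between the libraries, with fibroblast-like cells at 53.1% in Ctrl and 14.8% in CL and secretory-lineage luminal-like cells at 18.4% and 48.9%. These shares follow the number of cells in a class as well as their level.

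**Figure D2:**
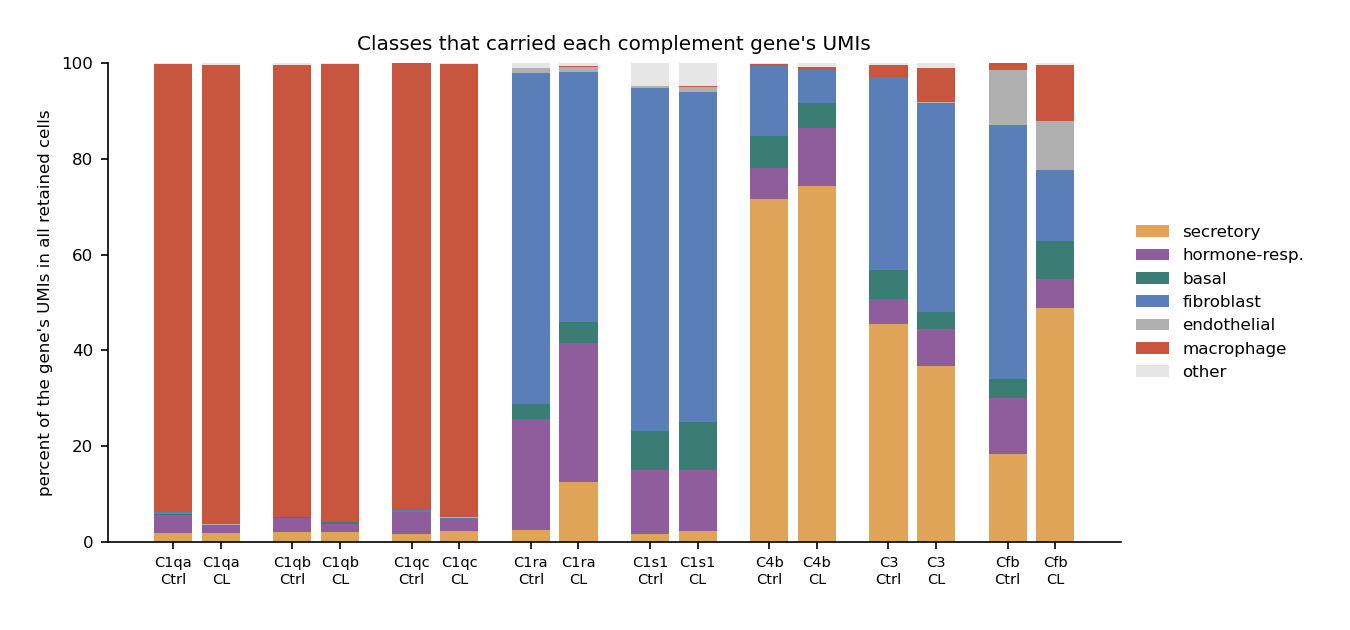
Percent of each complement gene's UMIs in retained cells that each cell class carried, stacked to 100% for the Ctrl and CL libraries. Macrophage-like cells carry over 93% of every C1q gene in both libraries, and the largest part of the Cfb bar is fibroblast-like in Ctrl (53.1%) and secretory-lineage luminal-like in CL (48.9%).

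C1q was found mainly in 1 set of cells, the H2-Eb1-led macrophage-like cluster. There C1qa, C1qb and C1qc together reached 10867 CPM in Ctrl cells and 12734 CPM in CL cells, a log2 ratio (CL over Ctrl) of 0.23 (0.17 to 0.29). All 40 Ctrl cells of that cluster held UMIs of all 3 genes (100%, Clopper-Pearson interval 91.2% to 100%), and 42 of the 43 CL cells did (97.7%, 87.7% to 99.9%). A cell held a median of 79 C1q UMIs in Ctrl (lowest 12, highest 262) and 142 in CL (lowest 15, highest 344), so the ranges of the libraries overlapped widely. These are raw counts, and the CL cells of the cluster were deeper, with a median of 10718 UMIs of all genes against 7974 in Ctrl. The 3 subunit genes kept nearly the same proportions in both libraries. C1qa, C1qb and C1qc made up 36.1%, 38.6% and 25.3% of these UMIs in Ctrl and 37.0%, 38.5% and 24.5% in CL.

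The Lyz2-led cluster, 9 of whose 169 cells came from Ctrl, held far less C1q. Its 3 genes together reached 274 CPM in Ctrl cells and 576 CPM in CL cells, a log2 ratio of 1.07 (0.32 to 1.95) that rests on 14 Ctrl UMIs, all in 1 cell. All 3 genes were detected in 27 of its 160 CL cells (16.9%, 11.4% to 23.6%), and 99 had no C1q UMI. Its proportions also differed, with C1qb at 54.0% and C1qa at 21.9% of the C1q UMIs of CL cells.

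Over the whole macrophage-like class the direction turned. C1qa stood at 3402 CPM in Ctrl and 1462 CPM in CL (log2 ratio -1.22, -1.32 to -1.12), C1qb at 3653 and 1648 CPM (-1.15, -1.24 to -1.06) and C1qc at 2399 and 1005 CPM (-1.25, -1.37 to -1.14). Summed, C1q stood at 9455 CPM in Ctrl against 4116 CPM in CL, a log2 ratio of -1.20 (-1.26 to -1.14), although both clusters within the class were higher in CL. The Lyz2-led cells, low in C1q, numbered 9 of the 49 Ctrl cells of the class and 160 of its 203 CL cells. With 1 round of clustering, an alternative added after seeing the data that left the Lyz2-led cells outside the class, the sum was higher in CL (0.27, 0.21 to 0.33). Over all retained cells of a library the sum was higher in CL, at 63.7 CPM against 44.9 CPM in Ctrl (0.50, 0.45 to 0.56).

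**Figure D3:**
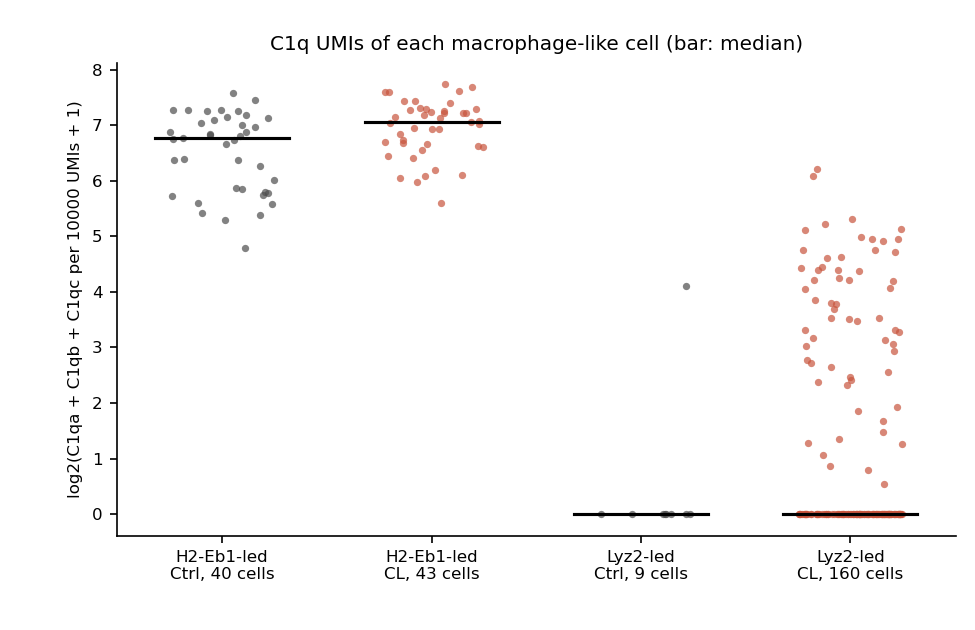
C1q per macrophage-like cell, as log2 of the summed C1qa, C1qb and C1qc UMIs per 10000 UMIs plus 1, for the H2-Eb1-led and Lyz2-led clusters of each library; each point is a cell and bars are medians. The H2-Eb1-led cells sit high in both libraries (40 Ctrl and 43 CL cells), and 99 of the 160 Lyz2-led CL cells sit at 0.

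Outside macrophage-like cells C1q was at or under the free RNA level. Droplets held 43.3 CPM of summed C1q in Ctrl and 60.2 CPM in CL, while every other class of either library held between 0 and 9.00 CPM. C1qc made up 28.3% of the C1q UMIs of droplets in Ctrl (135 of 477) and 31.4% in CL (210 of 668). In the H2-Eb1-led cells it made up 25.3% and 24.5%. No interval was computed for these proportions, and the difference in Ctrl is small. In Ctrl 1 hormone-responsive luminal-like cell held 48 of the 140 C1q UMIs of its class (34.3%), and in CL 1 basal-like cell held 9 of the 15 of its class. Elsewhere in the luminal classes they were spread thinly, and no cell held more than 3 of the 72 UMIs of secretory-lineage luminal-like cells in Ctrl, 5 of 147 in CL or 3 of the 143 of hormone-responsive luminal-like cells in CL.

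C1ra and C1s1, the genes of the proteases that C1q activates, were fibroblast-like genes in both libraries and differed little there. C1ra was at 390 CPM in Ctrl and 511 CPM in CL fibroblast-like cells, a log2 ratio of 0.39 (0.25 to 0.53). C1s1 was at 542 and 691 CPM, a log2 ratio of 0.35 (0.23 to 0.47). Both ratios stayed under the 2-fold size used here for a call, which also asks for an interval without 0 and at least 50 UMIs of the gene over both libraries. In the fibroblast-like clusters with at least 20 cells in each library, C1ra ranged from 379 to 438 CPM in Ctrl and from 470 to 557 CPM in CL, and C1s1 from 485 to 604 and from 650 to 757 CPM. In the T and NK-like cells 0 Ctrl and 1 CL UMI of C1ra were counted, and 2 and 1 of C1s1.

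C1ra was called higher in CL in secretory-lineage luminal-like and basal-like cells, where C1s1 was not called. In secretory-lineage luminal-like cells C1ra was at 0.912 CPM in Ctrl and 4.65 CPM in CL, a log2 ratio of 2.35 (1.78 to 2.98), both levels below the droplets (8.25 and 8.02 CPM). Cluster 9 of that class, 523 of whose 526 cells came from CL, held 121 of the 202 CL UMIs, and without it the ratio was 1.28 (0.64 to 1.95). In basal-like cells it was at 9.21 and 23.2 CPM (1.33, 0.73 to 1.97), and C1s1 was at 31.8 and 55.2 CPM (0.79, 0.45 to 1.15). Without 1 basal-like subcluster that came almost wholly from CL (3 Ctrl and 51 CL cells), the C1ra ratio was 0.89 (0.15 to 1.64) and the call was lost. The 7 fibroblast markers together reached 26.7 CPM in secretory-lineage luminal-like cells of Ctrl and 13.4 CPM in those of CL. In basal-like cells they reached 299 and 180 CPM, and their part in the C1ra difference was not tested. In hormone-responsive luminal-like cells C1ra was at 5.34 and 7.42 CPM and C1s1 at 4.16 and 3.36 CPM, all below the droplets. The only call of C1s1 was in the cells left unnamed, 204 CPM in Ctrl and 89.7 CPM in CL (-1.19, -1.67 to -0.70), and it was lost when the Leiden resolution, which sets how finely cells are clustered, was changed from 1 to 0.5 (-0.90) or 2 (-0.99). All of its UMIs there were in a cluster led by Myl9 with smooth muscle genes, where it was at 253 CPM in Ctrl and 256 CPM in CL.

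C4b was called higher in CL in each of the 3 epithelial classes, to a different extent in their clusters. In secretory-lineage luminal-like cells it was at 38.3 CPM in Ctrl and 78.2 CPM in CL, a log2 ratio of 1.03 (0.93 to 1.13) that rests on 1175 and 3395 UMIs. The difference was spread over the class: cluster 0, led by Plet1, went from 41.2 CPM in Ctrl to 76.8 CPM in CL, and the Ltf-led clusters 2, 4 and 8 from 29.2 to 60.5, from 46.0 to 72.7 and from 34.2 to 61.4 CPM. Without cluster 9 the ratio was 0.86 (0.76 to 0.96), under the 2-fold size. With each cell thinned to 5248 UMIs, 15.5% (14.1% to 17.0%) of 2419 Ctrl cells and 26.3% (24.9% to 27.8%) of 3517 CL cells held a C4b UMI, leaving out 237 and 391 shallower cells. Without thinning the shares were 24.8% and 39.4%. T and NK-like cells, which should lack C4b, had shares of 0.467% and 1.63% at a median of 4871 and 4453 UMIs, against medians of 9700 and 9149 in the luminal class.

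In basal-like cells C4b was at 29.0 CPM in Ctrl and 79.8 CPM in CL (log2 ratio 1.46, 1.13 to 1.80), and 0.89 (0.51 to 1.28) without the subcluster that came almost wholly from CL. Basal-like subclusters 5, 7 and 9 were lower in CL, each with an interval that includes 0, at 73.3 and 56.0, 243 and 212, and 9.81 and 7.72 CPM. Subcluster 9 scored highest for the secretory-lineage list and next for the hormone-responsive luminal list. The score was taken against a median mostly of basal-like subclusters, so markers that most subclusters share add little to it. It does not settle the cell type of subcluster 9, which stays less sure. In hormone-responsive luminal-like cells C4b was at 2.25 and 8.82 CPM (1.97, 1.67 to 2.28), both below the droplets (9.71 and 20.4 CPM). That difference lay in 1 cluster. The deepest cluster of the class, number 7 with 230 Ctrl and 608 CL cells and Ltf among its leading genes, held 488 of the 552 CL UMIs at 26.8 CPM against 8.67 CPM in Ctrl, and without it the ratio was 0.27 (-0.29 to 0.83). The 9 secretory-lineage markers also summed higher in the hormone-responsive luminal-like class of CL, 1559 CPM against 791 CPM in Ctrl, and their part in the C4b difference was not tested. Fibroblast-like cells stood at 122 CPM in Ctrl and 194 CPM in CL (0.67, 0.42 to 0.92), with cluster 14 at 99.6 and 221 CPM and the Il6-led cluster 18 at 562 and 517 CPM. In the 4 Ctrl and 9 CL Schwann-like cells C4b had 2 and 6 UMIs.

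C4b has a near-identical neighbour, C4a, and how the counting divided reads between them is uncertain. Their transcripts are 96.1% identical over the aligned bases, and 98.0% over the last 500 bases, which 3' sequencing reads. C4a was counted at 32 UMIs in Ctrl cells and 54 in CL cells beside 1642 and 4570 of C4b. C1s2, 96.8% identical to C1s1 over the 441 bases that align of their last 500, had 4 and 7 UMIs, and reads shared by such copies may have been dropped or assigned to either gene. C1rb, the copy of C1ra, had 2 and 1 UMIs and is 56.3% identical to it over the 451 bases that align of their last 500.

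C3 differed most between the libraries in fibroblast-like cells. It was at 87.2 CPM in Ctrl and 334 CPM in CL there, a 3.83-fold difference (log2 ratio 1.94, 1.69 to 2.19) on 170 and 548 UMIs. The C3 UMIs were concentrated in few cells, the 5 highest holding 46.5% in Ctrl and 27.7% in CL. With cells thinned to 1508 UMIs, 7.39% (4.36% to 11.6%) of 230 Ctrl cells and 21.2% (16.2% to 27.0%) of 236 CL cells held a C3 UMI, leaving out 20 and 26 cells. Without thinning the shares were 14.4% and 32.8%, at medians of 7115 and 5123 UMIs, against 0% and 0.407% in T and NK-like cells. The 7 fibroblast markers, collagens among them, together reached 41389 CPM in fibroblast-like cells of Ctrl and 27953 CPM in those of CL, and the part of that difference in the C3 ratio was not tested.

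The fibroblast-like clusters differed in their C3. Cluster 14, with collagen genes, Ccl2 and Mmp3 in the lead, held 69.9 CPM in Ctrl (83 cells) and 521 CPM in CL (65 cells), a log2 ratio of 2.90 (2.50 to 3.32). The Il6-led cluster 18 held 447 CPM in Ctrl (46 cells) and stood at 717 CPM in CL (60 cells), a log2 ratio of 0.68 (0.34 to 1.04). Cluster 11, led by Dcn, had 0 UMIs in 95 Ctrl cells and 10 UMIs, or 15.4 CPM, in 114 CL cells. C3 was thus higher in CL within each of clusters 11, 14 and 18.

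In secretory-lineage luminal-like cells C3 was at 6.22 CPM in Ctrl and 10.6 CPM in CL (log2 ratio 0.77, 0.53 to 1.03). Without cluster 9 the ratio was 0.07 (-0.22 to 0.35). Basal-like cells held 6.58 and 14.8 CPM (1.17, 0.43 to 1.94), and without the subcluster that came almost wholly from CL the ratio was 0.79 (-0.04 to 1.63). Hormone-responsive luminal-like cells held 0.463 and 1.53 CPM (1.73, 1.05 to 2.47), below the droplets (2.18 and 5.86 CPM), and without the deepest cluster the ratio was 1.34 (0.35 to 2.43) on 12 and 33 UMIs. In macrophage-like cells C3 was at 26.1 CPM in Ctrl and 51.3 CPM in CL (0.98, 0.03 to 2.09), and within the Lyz2-led cluster at 156 CPM (8 UMIs) and 71.5 CPM (88 UMIs). Neutrophil-like cells held 1 UMI in 2 Ctrl cells and 9 UMIs in 20 CL cells, or 127 CPM in CL.

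**Figure D4:**
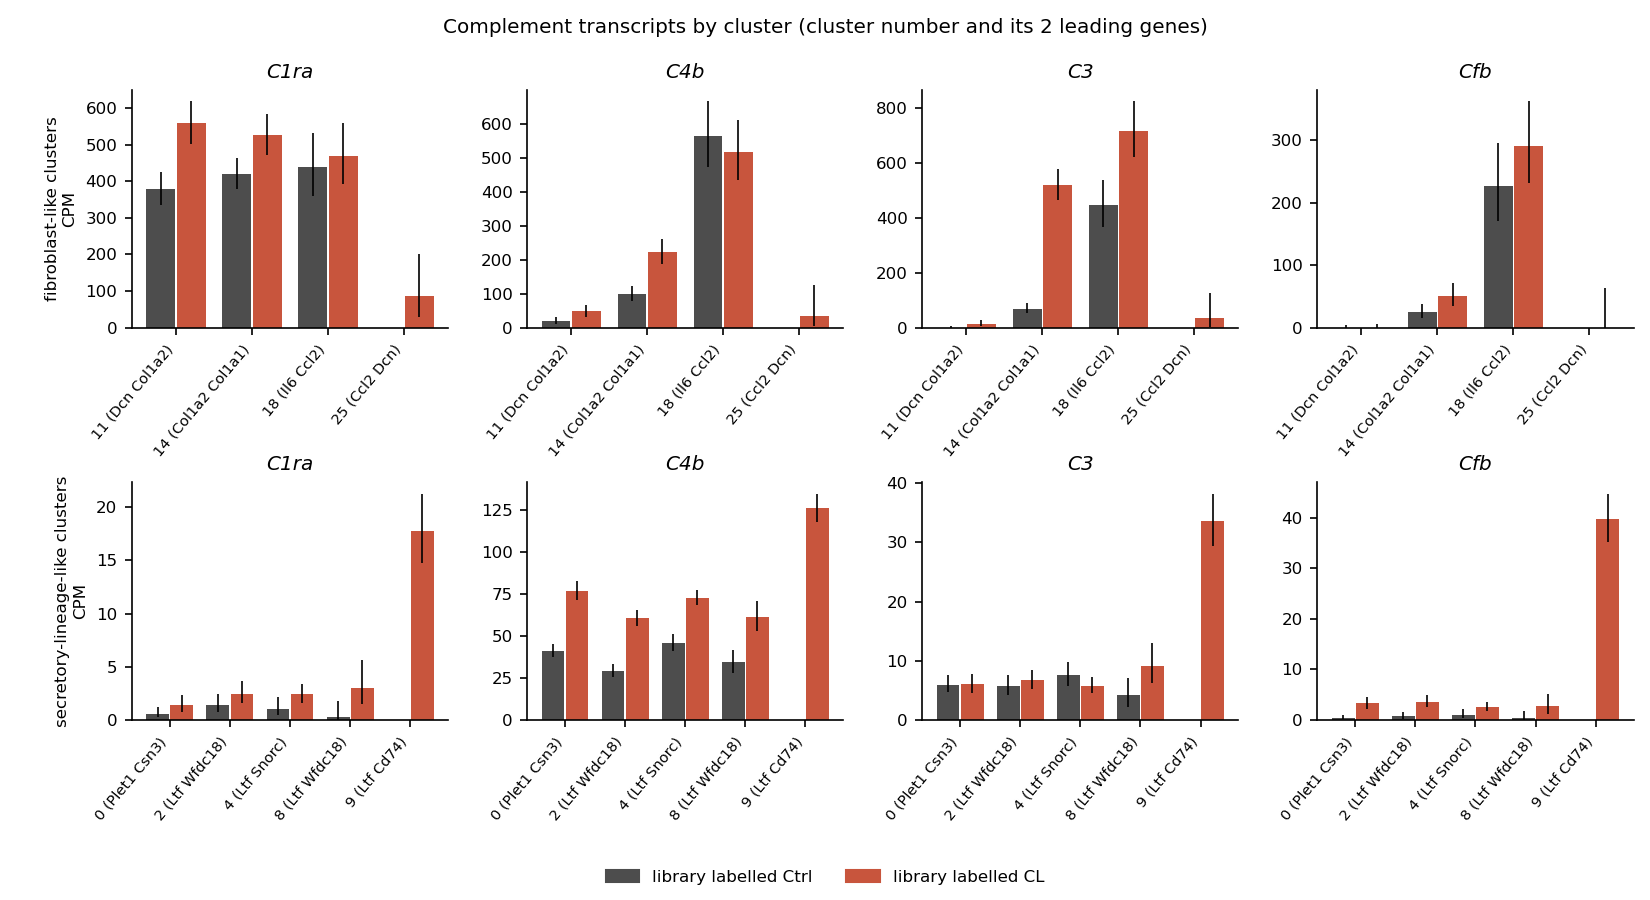
Levels of C1ra, C4b, C3 and Cfb (CPM, bars with 95% Poisson intervals) in the fibroblast-like clusters 11, 14, 18 and 25 and the secretory-lineage luminal-like clusters 0, 2, 4, 8 and 9 of each library; clusters with under 20 cells in a library have no bar for it. C3 of cluster 14 stands at 69.9 CPM in Ctrl and 521 CPM in CL, and C4b is higher in CL in each of clusters 0, 2, 4 and 8.

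Cfb, which encodes factor B, the protease of the alternative pathway, had the fewest UMIs of the 8 genes, 147 in Ctrl and 779 in CL cells. Its ratio was the largest of the members tested in secretory-lineage luminal-like, basal-like and macrophage-like cells, but was below that of C3 in fibroblast-like cells and below those of C4b and C3 in hormone-responsive luminal-like cells. In secretory-lineage luminal-like cells it was at 0.879 CPM in Ctrl and 8.77 CPM in CL, a 9.98-fold difference (log2 ratio 3.32, 2.76 to 3.94). Cluster 9 held 270 of the 381 CL UMIs, and without it Cfb stood at 0.652 CPM in Ctrl against 3.03 CPM in CL (2.22, 1.52 to 2.98). Droplets held 1.36 CPM of Cfb in Ctrl and 2.79 CPM in CL. The Ctrl level was thus below the droplets with or without cluster 9, and the CL level without it was close to them. With cells thinned to 5248 UMIs, 0.413% (0.198% to 0.759%) of Ctrl cells and 2.93% (2.40% to 3.54%) of CL cells held a Cfb UMI. Without thinning the shares were 0.828% and 5.09%, and T and NK-like cells of either library held no Cfb UMI.

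Cells outside the luminal layer held Cfb too. Endothelial-like cells, 53 and 55 of which remained in spite of the sort against CD31, stood at 67.2 CPM in Ctrl and 218 CPM in CL (log2 ratio 1.70, 0.93 to 2.55). The Selp-led cluster of these cells held 9 of the 17 Ctrl UMIs and 57 of the 80 CL UMIs, at 93.3 and 292 CPM. At 1445 UMIs per cell 6.38% (1.34% to 17.5%) of 47 Ctrl cells and 10 of 50 CL cells (10.0% to 33.7%) held a Cfb UMI, and the intervals overlap. Without thinning the shares were 22.6% and 45.5%. In macrophage-like cells 2 Ctrl UMIs of Cfb (5.21 CPM) and 91 CL UMIs (52.4 CPM) were counted, a log2 ratio of 3.33 (1.44 to 6.40). Of the CL UMIs 89 were in the Lyz2-led cluster, within which the ratio was 1.89 (-0.63 to 7.21) against a single Ctrl UMI.

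Fibroblast-like cells held Cfb at 40.03 CPM in Ctrl and 70.1 CPM in CL (0.81, 0.38 to 1.24), with the Il6-led cluster 18 at 227 and 291 CPM and cluster 14 at 25.2 and 50.7 CPM. In basal-like cells Cfb was at 1.58 CPM in Ctrl and 21.2 CPM in CL (3.75, 2.55 to 5.25). A subcluster of 3 Ctrl and 51 CL cells held 59 of the 63 CL UMIs, and without it the ratio was 0.31 (-2.03 to 2.52). Hormone-responsive luminal-like cells stood at 0.357 and 0.735 CPM (1.04, 0.21 to 1.94), below the droplets (1.36 and 2.79 CPM), and without the deepest cluster the ratio was 0.52 (-0.79 to 1.91).

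The clusters that came almost wholly from CL held several members together. Secretory-lineage luminal-like cluster 9, led by Ltf, Cd74, Cxcl9 and MHC class II genes, had 3 Ctrl and 523 CL cells, so it was compared with the 3385 other CL cells of its class. Cfb was at 39.8 CPM in it and 3.03 CPM in the other cells (log2 ratio 3.71, 3.39 to 4.05), C1ra at 17.8 and 2.21 CPM (3.01, 2.59 to 3.44) and C3 at 33.6 and 6.39 CPM (2.39, 2.12 to 2.66). C4b was at 126 and 69.3 CPM (0.86, 0.75 to 0.97). C3 was detected in 23.7% of its cells and 5.29% of the others, and Cfb in 22.2% and 2.45%, at median depths of 11093 and 8964 UMIs. Of the other pathway genes, C2, whose product joins C4b in the enzyme that cuts C3, was at 27.7 and 3.36 CPM (3.04, 2.71 to 3.38), and Serping1, the inhibitor of C1r and C1s, was at 43.7 and 6.93 CPM (2.66, 2.41 to 2.90). The C1q genes were not higher in it, with C1qb at 1.47 and 1.34 CPM (0.14, -1.01 to 1.14).

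The basal-like subcluster was led by Cxcl10, Gbp2, Ifit1 and MHC class II genes and also held several members. Its 51 CL cells held C4b at 212 CPM, Cfb at 113 CPM, C1s1 at 139 CPM, C1ra at 63.0 CPM, C3 at 30.5 CPM and Serping1 at 95.4 CPM, and no C1q UMI. C2 was at 7.63 CPM there (4 UMIs), against 27.7 CPM in cluster 9, and C1s1 at 139 CPM stood against 2.36 CPM in cluster 9. The 3 Ctrl cells of the subcluster held 5 UMIs of C1ra and 9 of C1s1, so within it both were lower in CL, with log2 ratios of -1.95 (-3.31 to -0.23) and -1.65 (-2.65 to -0.46). The subcluster scored highest for the secretory-lineage marker list and next for the basal list. That score was taken against a median mostly of basal-like subclusters, so markers that most subclusters share add little to it. The ranking does not settle the cell type of the subcluster, which stays less sure than that of the class. Both clusters hold under 4 cells of the Ctrl library, and a state of the cells and a property of that library cannot be told apart in them.

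The calls among the members were set against the share of all genes called in the same class. In secretory-lineage luminal-like cells 3 of 8 members were called higher in CL (C1ra, C4b and Cfb), where 1.18% of all tested genes were, and the C4b call was lost without cluster 9. In hormone-responsive luminal-like cells 3 of 8 were called higher (C3, C4b and Cfb), against 1.40% of all genes, and without the deepest cluster the C4b and Cfb calls were lost and C3 had under 50 UMIs. In basal-like cells 4 of the 5 members tested were called higher (C1ra, C3, C4b and Cfb), against 1.06%, and all 4 calls were lost without the subcluster of 3 Ctrl and 51 CL cells. In fibroblast-like cells 1 of 5 (C3) was called higher, against 1.48%, while C4b was also called with at least 1000 genes per cell (1.25, 0.96 to 1.54) and Cfb with doublets kept (1.02, 0.59 to 1.44). In endothelial-like cells the 1 member tested (Cfb) was, against 3.39% of genes called higher and 2.87% called lower. Calls were more common among all genes in macrophage-like cells. There 1 of 5 members was called higher (Cfb) against 11.5% and 3 of 5 lower (the C1q genes) against 5.49%. Within the H2-Eb1-led cluster C1qa, C1qb and C1qc were higher in CL, at log2 ratios of 0.27, 0.23 and 0.18. The Cfb call was lost in that cluster (0.40, -3.87 to 6.28) and in the Lyz2-led cluster (1.89, -0.63 to 7.21). In the unnamed cells the 1 tested member (C1s1) was called lower, against 10.3%. The members in a class are not independent of each other, and those with under 50 UMIs there were not tested.

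The median log2 ratio of the members tested was 0.80 in secretory-lineage luminal-like cells, beside -0.04 for all genes tested there. It was 1.33 beside -0.08 in basal-like cells, 0.67 beside -0.03 in fibroblast-like cells, 0.19 beside -0.02 in hormone-responsive luminal-like cells and -1.15 beside 0.24 in macrophage-like cells. In all, 33 pairs of a member and a class could be tested, of which 13 were called higher and 4 lower in CL. In the classes of these pairs, 1.06% (basal-like) to 11.5% (macrophage-like) of all genes were called higher. From 1.02% (basal-like) to 10.3% (unnamed cells) were called lower. Several of the 13 calls were lost when a cluster was left out, as given above. In the droplets, too, C3 was at 2.18 CPM in Ctrl and 5.86 CPM in CL (log2 ratio 1.43, 0.73 to 2.17) and C4b at 9.71 and 20.4 CPM (1.07, 0.73 to 1.41).

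**Figure D5:**
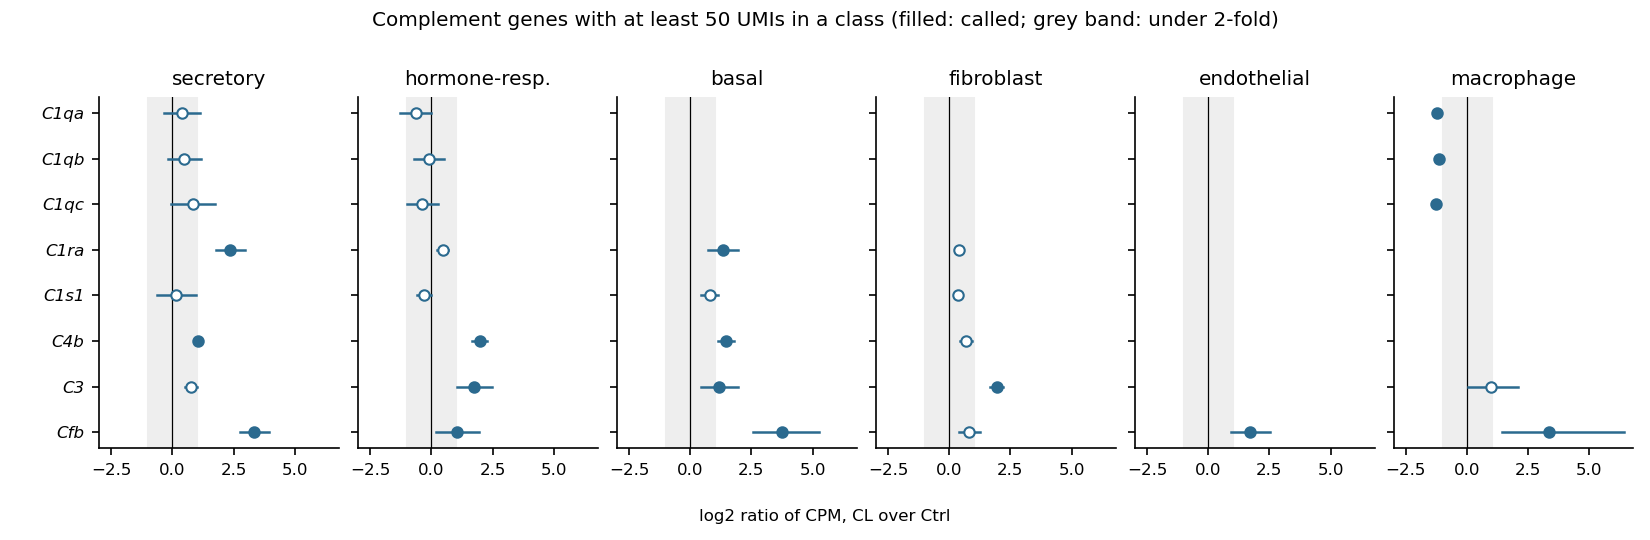
Log2 ratio (CL over Ctrl) of each complement gene with its 95% counting interval in 6 cell classes; filled points are called (at least 2-fold, interval without 0) and the grey band marks differences under 2-fold. C4b, C3 and Cfb lie on the CL side in epithelial and fibroblast-like cells, and the C1q genes lie on the Ctrl side in macrophage-like cells.

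Of the 46 other genes on the pathway list, 73 pairs of a gene and a class could be tested, of which 10 were called higher and 4 lower in CL. Of these calls, 3 higher and 2 lower were among 10 genes tested in macrophage-like cells and 2 higher among 4 in the unnamed cells, where calls were common among all genes (11.5% higher and 5.49% lower, and 11.1% higher). In the other classes 2 of 15 genes were called higher in secretory-lineage luminal-like cells (1.18% of all genes), 2 of 16 in hormone-responsive luminal-like cells (1.40%), 1 of 4 in basal-like cells (1.06%) and 0 of 10 in fibroblast-like cells (1.48%). Lower calls there numbered 1 of 16 in hormone-responsive luminal-like cells (1.72% of all genes) and 1 of 7 in endothelial-like cells (2.87%), and none of the 6 genes tested in T and NK-like cells was called. Of the initiators beside the members, C2 was called in secretory-lineage luminal-like cells, at 1.43 CPM in Ctrl and 7.16 CPM in CL (log2 ratio 2.32, 1.86 to 2.81), and at 1.33 (0.81 to 1.87) without cluster 9. Serping1 was called with it, at 1.33 and 12.7 CPM (3.25, 2.79 to 3.74), and 2.37 (1.89 to 2.89) without cluster 9. It was also called in basal-like cells (9.74 and 35.0 CPM, 1.85, 1.29 to 2.43), and 1.21 (0.58 to 1.86) without the subcluster. In hormone-responsive luminal-like cells Serping1 was called at 0.799 and 2.25 CPM (2.82-fold higher, interval of the log2 ratio 0.97 to 2.05), and without the deepest cluster the log2 ratio was 0.20 (-0.50 to 0.90). In fibroblast-like cells, where Serping1 had its highest level, it was at 1065 CPM in Ctrl and 1284 CPM in CL and was not called.

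Of the 9 lectin pathway genes 3 could be tested in hormone-responsive luminal-like cells. Masp1, a protease of that pathway, was higher in CL there (0.421 and 1.29 CPM, 1.62, 0.90 to 2.41). Its level was higher in secretory-lineage luminal-like cells (9.83 and 12.7 CPM), and the sum of their 9 markers in the hormone-responsive luminal-like class was also higher in CL (1559 CPM against 791 CPM). The part of those markers in the Masp1 difference was not tested. Fcna, a ficolin that recognises sugars, was lower in hormone-responsive luminal-like cells (1.85 and 0.767 CPM, -1.27, -1.81 to -0.75), where 1.72% of all genes were called lower. Of the 7 terminal components, the parts of the pore that complement makes, 1 could be tested in secretory-lineage luminal-like cells, 2 in hormone-responsive luminal-like cells and 1 in fibroblast-like cells, and none was called there. The other classes had too few UMIs of them for a test. Over all cells 28 other genes of the list could be tested, and 4 were called higher and 4 lower in CL. Of all genes 2.98% and 2.76% were called there. Hc was among the lower ones, at 7.18 CPM in Ctrl and 2.88 CPM in CL (-1.32, -1.52 to -1.13). It is the gene of C5 and had its highest level in fibroblast-like cells, at 169 CPM in Ctrl and 86.5 CPM in CL (-0.97, -1.26 to -0.68). Those cells were 4.21% of Ctrl cells and 2.97% of CL cells. Colec12, a scavenger receptor counted with the lectins, was highest there too, at 259 and 159 CPM (-0.70, -0.93 to -0.49).

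Of the 9 receptor genes on the list 6 could be tested in macrophage-like cells. In CL 1 was called higher and 2 lower, where 11.5% and 5.49% of all genes were. C3ar1, the receptor of the C3a fragment, was at 240 CPM in Ctrl and 70.9 CPM in CL (-1.76, -2.16 to -1.35), and Itgax, a subunit of complement receptor 4, at 237 and 75.5 CPM (-1.65, -2.05 to -1.25). Itgam, a subunit of complement receptor 3, was at 67.7 and 184 CPM (1.44, 0.87 to 2.08). Of the other roles, Cfp, the gene of properdin, which stabilises the enzyme of the alternative pathway, was at 31.3 and 85.9 CPM (1.46, 0.61 to 2.44), and the regulator Clu at 13.0 and 53.0 CPM (2.02, 0.75 to 3.68). These ratios were taken over the whole class, whose clusters were mixed 40 to 9 in Ctrl and 43 to 160 in CL. The highest receptor level was that of C5ar1, the receptor of C5a, in neutrophil-like cells, with 5 UMIs in 2 Ctrl cells and 52 UMIs in 20 CL cells. In the unnamed cells Cfp (18.0 and 93.1 CPM) and Itgb2 (24.0 and 71.6 CPM) were called higher, against 11.1% of all genes.

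Over the 29 clusters with at least 20 cells, both libraries pooled, the genes most like each of 5 members were found by Pearson's r of log2(CPM + 1). These correlations are descriptions: clusters share libraries, free RNA and depth, and genes with few UMIs share their zeros. C1qa was most like Pf4 (r = 0.92), C1qc (0.90) and Spic (0.88). C1s1 was most like Pcolce (0.97), Cygb (0.94) and Col5a2 (0.94), genes of collagen processing, fibroblast globin and fibrillar collagen. C4b was most like Cryab (0.89), Ephb2 (0.82) and Egfr (0.82), C3 most like Ptgs2 (0.79), Csf1 (0.77) and Gpnmb (0.75), and Cfb most like Ptgs1 (0.78), Ube2l6 (0.78) and Smad6 (0.75). Among the members the C1q genes correlated at 0.85 to 0.90 with each other and C1ra with C1s1 at 0.85, while C3 correlated with C4b at 0.57 and with Cfb at 0.53.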

How the data were processed

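Single cells of mammary gland were counted in 1 Ctrl and 1 CL library. The authors' deposited counts are raw UMI counts per gene and barcode. The processing notes name Cell Ranger 2.1.1 and mm10, the file headers Cell Ranger 4, and the annotation release was not given in the sources used here. The matrices held 6794880 barcodes each. The barcodes with most UMIs were taken, as many as the deposited barcode lists hold (7217 and 10555), since those lists do not index the matrix columns, and cells with under 500 genes or over 15% mitochondrial UMIs were left out. Doublets were scored with Scrublet, and 360 Ctrl (5.72%) and 509 CL cells (5.45%) were removed. The automatic threshold marked 0 CL cells, so that of Ctrl was used for both, chosen after seeing the data.

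Counts were scaled to 10000 UMIs per cell and clustered in scanpy 1.11.5 (2000 variable genes without the pathway list, 30 components, 15 neighbours, Leiden resolution 1, leidenalg 0.10.2). The clusters outside the large epithelial ones were clustered again in a second step. Each cluster was named after its best-scoring marker list, with at least 3 markers detected, and stayed unnamed where a second class scored over 60% of the first or leading genes went against the name. The second step and the scoring were set after seeing the data. The members and lists were chosen with earlier results of these data known. A gene of the pathway list is counted in the totals but not reported here by name. UMIs were summed per class and library. Levels have exact Poisson intervals, ratios exact conditional binomial intervals and shares Clopper-Pearson intervals (scipy 1.17.1, 95%). The procedure for ratios was tested on simulated independent Poisson counts, which its intervals assume. That simulation did not cover UMIs concentrated in few cells. A gene was called at 2-fold or more with an interval without 0 and at least 50 UMIs. The text names the 8 members, pathway genes called or highest in their role, and the 3 genes most like 5 members (at least 200 UMIs). Alternatives changed the filters, doublets, resolution, naming, scaling (edgeR 4.0.16 TMM), minimum UMIs and free RNA. 1 macrophage marker is not reported here.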

Additional observations from a re-analysis of the deposited data

How the results depend on the processing

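With 1 library per condition no library could be left out. No paired analysis was possible because each group has 1 library and the groups share only replicate number 1. Of the 18 called ratios (17 pairs and the C1q sum), all 212 values under the other filters, names and scalings chosen at the start kept their direction and 195 stayed past the 2-fold rule. Of the 38 values under alternatives chosen after seeing the data, 25 kept their direction and 18 stayed past it. The C1q sum in macrophage-like cells was -1.08 with a mitochondrial limit of 5%, -1.30 at Leiden resolution 0.5, -1.37 as the mean of each cell's CPM, -1.27 with TMM factors, -1.31 without the 50 most abundant genes, -0.997 with free RNA subtracted and -0.63 with each cell named alone. The call of the sum was lost with free RNA subtracted and with each cell named alone. That of C1qb was also lost with free RNA subtracted (-0.95, -1.04 to -0.85). The free RNA share subtracted from macrophage-like cells was 0% in Ctrl and 13.9% in CL, so that setting changed CL alone. C3 in fibroblast-like cells was 2.21 with at least 1000 genes per cell. The 4 calls of lower members became 0 with each cell named alone, and the 13 calls of higher members became 6 with at least 200 UMIs, which leaves fewer pairs to test. C4b in hormone-responsive luminal-like cells was 0.27 with at least 1000 genes and 0.31 at resolution 0.5, and the cause was not tested. In fibroblast-like cells C4b was called with at least 1000 genes (1.25) and Cfb with doublets kept (1.02), and the C1s1 call in unnamed cells was lost at resolutions 0.5 (-0.90) and 2 (-0.99). C3 in macrophage-like cells was called, at 1.01 to 1.17, with at least 1000 genes, doublets kept, each cell named alone or free RNA subtracted. The Cfb call in hormone-responsive luminal-like cells was lost, at 0.52 to 0.94, with at least 200 or 1000 genes, no mitochondrial limit, doublets kept, resolution 0.5 or each cell named alone, and that of C3 in basal-like cells (0.81) with a mitochondrial limit of 5%.

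Alternatives chosen after seeing the data turned the C1q direction. With 1 round of clustering, which kept 40 Ctrl and 42 CL macrophage-like cells, C1qa was 0.33, C1qb 0.26, C1qc 0.21, their sum 0.27 and Cfb -0.50, and 1 call of a lower member was left. In the Lyz2-led cluster alone C1qa was 1.69, C1qb 1.18, C1qc 0.51 and the sum 1.07. In the H2-Eb1-led cluster alone they were 0.27, 0.23, 0.18 and 0.23. By construction these change which cells enter the class. Without the cluster almost wholly from CL, C4b was 0.86 and Cfb 2.22 in secretory-lineage luminal-like cells. All 4 basal-like calls were lost without the subcluster almost wholly from CL (C1ra 0.89, C3 0.79, C4b 0.89 and Cfb 0.31). Depth limits the classes of under 100 cells, where most members had under 50 UMIs.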
